A study of Mus musculus with 22 samples.

Results

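The 8 genes described here are the components of the renin-angiotensin system named *Ren1*, *Agt*, *Ace*, *Agtr1a*, *Mme*, *Enpep*, *Atp6ap2*, and *Lnpep*, picked by gene symbol from the 32858 genes of a kidney count table. Each symbol matched 1 row, and all 8 had enough counts to be tested. The table holds poly-A RNA-Seq of 1 kidney library from each of 22 male C57Bl6/J mice, aged 8 to 10 weeks, in a model of subchronic cisplatin nephrotoxicity. Vehicle mice (n = 5) received the carrier, which was 15% DMSO, 15% cremophor, and 70% saline. KW6002 mice (n = 6) received KW6002 (istradefylline), an antagonist of the adenosine receptor encoded by *Adora2a*, at 3 mg/kg every day by intraperitoneal injection, from 5 days before the day of the first cisplatin dose until day 7. Cisplatin mice (n = 5) received cisplatin, a platinum anticancer drug, in saline, in 6 daily intraperitoneal injections of 3 mg/kg. Co-treated mice (Cisplatin+KW6002, n = 6) received both drugs on these schedules. Mice given cisplatin were killed 72 hours after its last injection. The carrier, its days of dosing with or without KW6002, and killing on day 8 are recorded alike for every group. The labels name no transgene or deletion in any group, and the kidneys were whole, so each library mixes all cell types of the organ.

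The renin-angiotensin system raises blood pressure and retains sodium. Renin, released by juxtaglomerular cells of the kidney's afferent arterioles, cuts angiotensinogen to angiotensin I, and angiotensin-converting enzyme trims this to angiotensin II, which acts mainly through the type 1 receptor. Peptidases of the tubular brush border and other membranes, neprilysin, aminopeptidase A, and insulin-regulated aminopeptidase among them, convert or degrade the angiotensins, and the (pro)renin receptor binds renin and its precursor and is also an accessory subunit of the vacuolar proton pump.

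The 22 libraries held 26471762 to 40510754 counts each. Levels are CPM, counts divided by the library's size and scaled up, after TMM normalization, which adjusts for library composition. Differences are log2 fold changes ± SE from edgeR's quasi-likelihood test, with p values adjusted by Benjamini-Hochberg over the 17131 genes that passed the count filter. A call required that the log2 fold change exceeded 1 in size and that the adjusted p was below 0.01, while a single gene was said to rise or fall at an adjusted p below 0.05. Comparisons that use the same vehicle or cisplatin libraries are not independent of each other. Co-treated replicate 6 stood apart from the other 21 libraries: it held 15.5 CPM of *Cyp11b1* and 14.6 CPM of *Cyp21a1*, steroid-synthesis enzymes of the adrenal cortex that reached at most 0.0802 and 0.153 CPM elsewhere. The mouse numbers in the labels form a series in the 300s, with 3 vehicle and 3 KW6002 mice, and a series in the 500s, with the other 16 mice and every mouse given cisplatin.

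Start-site sequences are given for *Ren1*, *Agt*, and *Ace*, the genes of the renin substrate and of both enzymes that make angiotensin II, which had the 3 largest fold changes of the members after cisplatin over all kidneys, though not among mice of the 500s alone, where *Mme* (−1.42) moved further than *Agt* (1.33) and *Ren1* (−1.06), nor with the number series as a covariate. Each line is the 250 bases before the RefSeq start site (GRCm38.p6), read 5′ to 3′ on the gene's strand, with matches to the searched motifs in capitals.

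Ren1 (chr1:133350424-133350673, plus strand): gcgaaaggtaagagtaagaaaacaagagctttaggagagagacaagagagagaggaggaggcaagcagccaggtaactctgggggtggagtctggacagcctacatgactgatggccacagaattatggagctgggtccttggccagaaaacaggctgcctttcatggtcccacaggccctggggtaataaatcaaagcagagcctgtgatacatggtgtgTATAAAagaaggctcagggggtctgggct

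Agt (chr8:124569707-124569956, minus strand): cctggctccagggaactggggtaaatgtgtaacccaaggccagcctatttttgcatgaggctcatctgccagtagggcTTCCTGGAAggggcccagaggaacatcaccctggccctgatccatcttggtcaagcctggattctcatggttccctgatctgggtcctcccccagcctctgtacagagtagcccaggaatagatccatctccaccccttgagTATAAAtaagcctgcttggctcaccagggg

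Ace (chr11:105967698-105967947, plus strand): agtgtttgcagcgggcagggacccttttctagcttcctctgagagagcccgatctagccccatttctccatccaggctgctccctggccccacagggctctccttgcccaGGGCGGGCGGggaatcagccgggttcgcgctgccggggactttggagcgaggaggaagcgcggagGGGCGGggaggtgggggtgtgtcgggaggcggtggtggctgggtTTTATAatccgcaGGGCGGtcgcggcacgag

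The motifs were picked after the sequences had been seen and were searched on both strands. Core promoter motifs were the TATA box, TATAAA, the CCAAT box, spelled as its name, and the GC box, GGGCGG. Motifs of signal-driven and tubular or hepatic factors were the cAMP response element, TGACGTCA, a site of HNF1, GTTAAT, and a STAT palindrome, TTCCNGGAA. *Ren1* and *Agt* had TATAAA on the gene's strand, with its first base at −29 and −30 from the start, and *Ace* had it on the other strand at −31. This motif occurred in 12.4% of the 32851 RefSeq promoter windows of the same length and in 4 of the 10 start sites found for 7 of the 8 members, the fourth being that of *Enpep*. The printed *Ace* start had 4 GC boxes, of which the first pair overlap, and GGGCGG occurred in 32.7% of all windows. A second *Ace* start, not printed, matched only CCAAT, on the other strand at −25. *Agt* had the STAT palindrome at −172, a motif found in 0.913% of all windows and at no other member start. CCAAT was found in 5 of the 10 member windows and 33.8% of all, while TGACGTCA and GTTAAT were in none of the 10 and in 1.55% and 6.43% of all. These matches describe letters in a window and no factor's binding.

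Cisplatin moved all 8 genes at an adjusted p below 0.05. *Ren1*, *Ace*, *Agtr1a*, *Mme*, *Enpep*, and *Atp6ap2* fell, and *Agt* and *Lnpep* rose. Of all tested genes, 70.5% passed that limit in this comparison, 34.6% higher and 35.9% lower. The calls took in 5 members, *Ace*, *Ren1*, *Mme*, and *Agtr1a* lower and *Agt* higher, against 24.1% of all tested genes (12.1% called lower and 12.1% higher). With libraries scaled by size alone, *Agtr1a* and *Mme* missed the size limit and 3 members were called. With the series of mouse numbers as a covariate *Ren1* missed it (−0.91) and 4 were called, and every mouse given cisplatin has a number in the 500s. Vehicle and cisplatin libraries did not overlap for 7 members, all but *Atp6ap2*, against 55.3% of all genes. The members' log2 fold changes ran from −1.89 to 1.37 with a median of −1.02, beside −0.01 over all tested genes. KW6002 given with cisplatin raised *Agtr1a*, *Mme*, *Enpep*, and *Atp6ap2* and lowered *Agt* and *Lnpep* relative to cisplatin alone. These 4 rises and 2 falls at an adjusted p below 0.05 stand beside 55.8% of all genes, 28.6% higher and 27.2% lower, and none was called, beside 10.3% of all genes. The members' median log2 fold change there was 0.25, beside 0.01 over all genes.

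**Figure D1:**
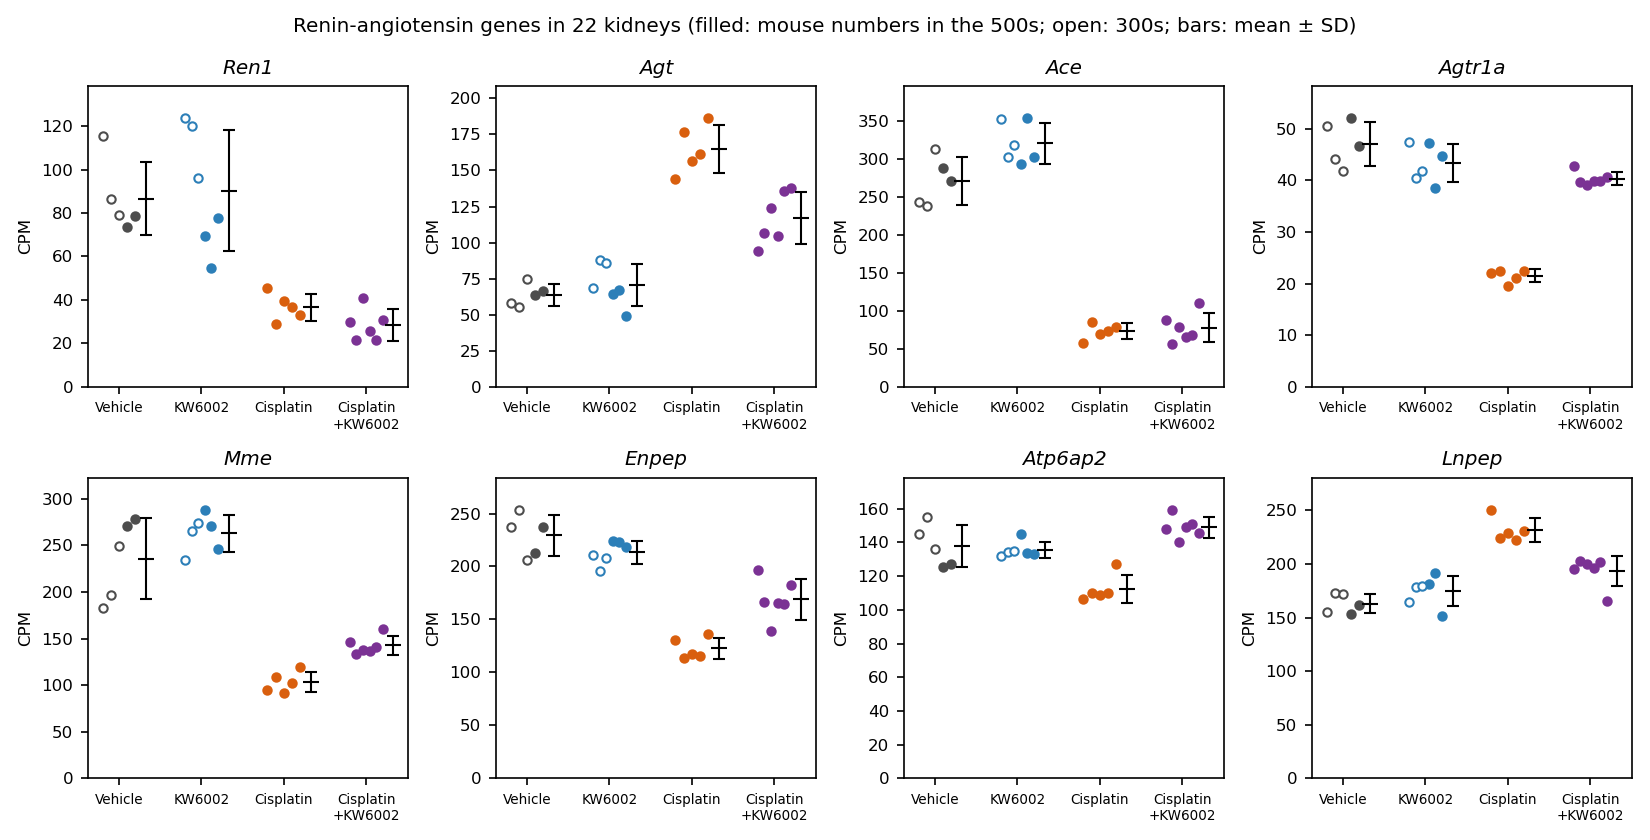
CPM of the 8 members (vertical axis) in each of the 22 kidneys by group, with filled points for mouse numbers in the 500s, open points for the 300s, and bars for mean ± SD. The 5 cisplatin kidneys lie below all vehicle kidneys for *Ren1*, *Ace*, *Agtr1a*, *Mme*, and *Enpep* and above them for *Agt* and *Lnpep*, and the 6 co-treated kidneys lie between 39.1 and 42.8 CPM for *Agtr1a*.

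*Ren1* encodes renin, the protease that starts the cascade. It lies at chr1:133350510-133360325 on the plus strand (mm10), and no other annotated gene overlaps it. C57Bl6 mice carry a single renin gene. The 5 vehicle kidneys held 115, 86.6, 79.1, 73.5, and 78.4 CPM, and the 5 cisplatin kidneys held 45.3, 28.8, 39.4, 36.5, and 32.9 CPM. KW6002 kidneys ran from 54.8 to 123.6 CPM with a median of 87.0, and co-treated kidneys from 21.5 to 41.0 CPM with a median of 27.7. Every kidney given cisplatin, with or without KW6002, lay below every kidney not given it. The fall after cisplatin was a log2 fold change of −1.24 ± 0.20, or 2.37-fold (adjusted p = 1.04e-05, edgeR). Co-treated kidneys lay 3.06-fold below vehicle (log2 fold change −1.61 ± 0.19, adjusted p = 2.8e-07). KW6002 added to cisplatin gave a log2 fold change of −0.37 ± 0.19 that missed the limit (adjusted p = 0.11), and the libraries overlapped. That difference passed without co-treated replicate 3, the highest of its group (−0.50, adjusted p = 0.0296), among mice of the 500s (−0.37, adjusted p = 0.0462), and with the number series as a covariate (−0.37, adjusted p = 0.048). Within both control groups *Ren1* was higher in the 300s than in the 500s, at a mean of 93.6 against 76.0 CPM with vehicle and 113 against 67.4 CPM with KW6002. Mice of the 500s alone gave a fall after cisplatin of −1.06 (adjusted p = 1.5e-04), and they include only 2 vehicle mice. With the number series as a covariate the fall was −0.91 (adjusted p = 1.41e-04), which is short of the size needed for a call.

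In whole-kidney RNA, fewer cells of a type and less RNA per cell cannot be told apart. The summed levels of 6 mesangial and pericyte markers ran from 131 to 186 CPM with vehicle, 332 to 423 with cisplatin, and 220 to 266 with both drugs, and 6 smooth muscle markers from 226 to 274, 312 to 388, and 220 to 369 CPM. Podocyte markers ran from 496 to 614, 495.9 to 537.6, and 470 to 536.3 CPM. After cisplatin 5 of the 6 mesangial and pericyte markers rose and none fell. Of the 6 smooth muscle markers 2 rose and 4 did not pass, with log2 fold changes from −0.34 to 1.22 over all 6. The sums of both contractile lists lay above the vehicle range in all 5 kidneys, while *Ren1* was lower. Of the 13 renin cell and macula densa genes read below, *Rgs5* and *Mef2c* were among 5 that fell after cisplatin, while 4 rose. *Mef2c* did not pass under library size scaling or among mice of the 500s. With KW6002 added *Rgs5* was among 3 that rose, while 3 fell. The part of all these cell types in the result was not tested.

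*Agt* encodes angiotensinogen, the only known substrate of renin. It lies at chr8:124556534-124569706 on the minus strand. Vehicle kidneys held 58.3, 55.3, 74.9, 63.8, and 66.7 CPM, and cisplatin kidneys held 144, 176, 157, 161, and 186 CPM. Values ran from 49.1 to 88.2 CPM with KW6002 alone (median 67.8) and from 94.5 to 138 CPM with both drugs (median 115). The co-treated kidneys thus filled the gap between the vehicle and cisplatin kidneys without overlap on either side. *Agt* rose 2.58-fold after cisplatin (log2 fold change 1.37 ± 0.13, adjusted p = 3.92e-09), fell when KW6002 was added (−0.49 ± 0.12, adjusted p = 1.83e-03), and remained 1.84-fold above vehicle in co-treated kidneys (0.88 ± 0.13, adjusted p = 3.58e-06). The mean was 258% of the vehicle mean after cisplatin and 184% after both drugs. The fall with KW6002 differed from its effect without cisplatin (−0.63 ± 0.18, adjusted p = 6.03e-03), but not past the limit among mice of the 500s (−0.37, adjusted p = 0.141).

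Angiotensinogen is made by liver, fat, and proximal tubule. Of 6 liver markers 4 rose and 2 fell after cisplatin, and their sum ran from 96.3 to 114 CPM with vehicle, 138.5 to 176 with cisplatin, and 75.5 to 141 with both drugs. *Alb* and *Ttr*, which encode albumin and transthyretin, fell (log2 fold changes −2.63 and −4.36), while *Fgb* and *Apoa1*, genes of a fibrinogen chain and of apolipoprotein A-I, rose (5.28 and 1.39). Of 8 fat markers 1 rose and 1 fell after cisplatin, and 6 fell with KW6002 added. Their sum ran from 2683 to 5277 CPM with vehicle, 5122 to 8359 with cisplatin, and 1647 to 4175 with both drugs, mostly from *Pck1*, which the proximal tubule also expresses. With the mean of the fat markers as a covariate, *Agt* was 1.39 above vehicle after cisplatin and −0.69 against cisplatin with KW6002 added (adjusted p = 1.12e-09 and 6.67e-04). The 12 proximal tubule markers all fell after cisplatin, from a sum of 28110 to 29300 CPM down to 3177 to 5477 CPM. After cisplatin *Agt* thus moved opposite to that list, and the part of liver and tubule RNA in its change was not tested.

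*Ace* encodes angiotensin-converting enzyme. It lies at chr11:105967945-105989964 on the plus strand, and the antisense gene *Gm11651* overlaps it. Whether strand was used in counting is not stated, so reads of the pair may not be told apart. Vehicle kidneys held 243, 238, 314, 288, and 272 CPM, and cisplatin kidneys held 57.3, 85.5, 69.9, 73.0, and 78.8 CPM. Levels ran from 293 to 354 CPM with KW6002 (median 311) and from 56.3 to 111 CPM with both drugs (median 73.8). The cisplatin and co-treated kidneys overlapped, and all lay below every kidney of both other groups. *Ace* fell 3.72-fold after cisplatin (log2 fold change −1.89 ± 0.14, adjusted p = 3.38e-11), the largest change of the 8 members. It was 3.48-fold below vehicle in co-treated kidneys (−1.80 ± 0.13, adjusted p = 1.05e-10), with a difference of 0.10 ± 0.13 from cisplatin alone that did not pass (adjusted p = 0.546). The highest co-treated value, 111 CPM, was that of replicate 6, and without it the difference was −0.03 (adjusted p = 0.814).

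*Agtr1a* encodes the main type 1 angiotensin II receptor of mouse kidney. It lies at chr13:30336441-30382867 on the plus strand, with *Gm48161* inside an intron. Vehicle kidneys held 50.6, 44.1, 41.9, 52.1, and 46.7 CPM, and cisplatin kidneys held 22.1, 22.5, 19.6, 21.03, and 22.5 CPM. KW6002 kidneys ran from 38.6 to 47.4 CPM (median 43.3) and co-treated kidneys from 39.1 to 42.8 CPM (median 39.9). All 6 co-treated kidneys lay above all 5 cisplatin kidneys. Their range overlapped with that of KW6002. Only co-treated replicate 1 (42.8 CPM) reached into the vehicle range, and the others lay below every vehicle kidney. *Agtr1a* fell 2.18-fold after cisplatin (log2 fold change −1.13 ± 0.06, adjusted p = 5.07e-13) and rose 1.87-fold when KW6002 was added (0.90 ± 0.06, adjusted p = 8.59e-11). The mean was 45.8% of vehicle after cisplatin and 85.7% after both drugs. Co-treated kidneys remained below vehicle by a small margin (−0.22 ± 0.06, adjusted p = 3.12e-03), which was −0.06 (adjusted p = 0.368) when libraries were scaled by size alone. The effect of KW6002 with cisplatin exceeded that without it by 1.02 ± 0.09 (adjusted p = 8.3e-09), and *Agtr1a* was the only member called for this difference, beside 8.58% of all genes called in either direction and 4.24% called upward. This call was lost at a size of 0.95 under library size scaling, and at 0.98 to 1.00 when vehicle replicate 1, vehicle replicate 4, KW6002 replicate 5, or cisplatin replicate 3 was left out, with the direction and the pass at 0.05 kept.

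*Mme* encodes neprilysin, a brush-border endopeptidase that cuts angiotensins, bradykinin, and natriuretic peptides. It lies at chr3:63241537-63386030 on the plus strand. Vehicle kidneys held 182, 197, 248.9, 271, and 279 CPM, and cisplatin kidneys held 95.2, 108, 91.5, 102.4, and 119 CPM. Levels ran from 234 to 288 CPM with KW6002 and from 133 to 161 CPM with both drugs. The 3 levels of vehicle, co-treated, and cisplatin kidneys were separated without overlap. *Mme* fell 2.28-fold after cisplatin (log2 fold change −1.19 ± 0.10, adjusted p = 3.73e-10), rose 1.38-fold with KW6002 added (0.46 ± 0.10, adjusted p = 2.66e-04), and stood 1.65-fold below vehicle in co-treated kidneys (−0.73 ± 0.09, adjusted p = 8.19e-07). The 3 vehicle mice of the 300s averaged 210 CPM and the 2 of the 500s 275 CPM. The difference between both KW6002 effects was 0.31 ± 0.13 (adjusted p = 0.0703), and it passed among mice of the 500s (0.50, adjusted p = 4.52e-03), with the number series as a covariate (0.31, adjusted p = 0.0364), and without vehicle replicate 1 (0.39, adjusted p = 0.013), vehicle replicate 2 (0.36, adjusted p = 0.0297), or cisplatin replicate 5 (0.36, adjusted p = 0.033).

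*Enpep* encodes aminopeptidase A, which converts angiotensin II to angiotensin III. It lies at chr3:129269175-129332720 on the minus strand, with the processed pseudogene *Gm42628* on the other strand. Vehicle kidneys ran from 206 to 254 CPM, cisplatin kidneys from 114 to 136, co-treated kidneys from 139 to 197, and KW6002 kidneys from 196 to 225 CPM. As for *Mme*, the co-treated kidneys sat between those of cisplatin and vehicle with no overlap. *Enpep* fell 1.87-fold after cisplatin (−0.90 ± 0.08, adjusted p = 4.84e-10), under the size needed for a call, and rose with KW6002 added (0.46 ± 0.07, adjusted p = 1.51e-05). It was 1.36-fold below vehicle in co-treated kidneys (−0.44 ± 0.07, adjusted p = 2.05e-05).

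Neprilysin, aminopeptidase A, and much of the kidney's angiotensin-converting enzyme sit on the proximal tubule brush border. The median log2 fold change of the 12 proximal tubule markers was −3.17 after cisplatin and 2.20 with KW6002 added, and 11 of the 12 rose in the second comparison. The falls of *Ace* (−1.89), *Mme* (−1.19), and *Enpep* (−0.90) were smaller than that median. The markers ran from −7.08 to −1.08 after cisplatin, a range that holds *Ace* and *Mme* but not *Enpep*. The rises of *Mme* and *Enpep* with KW6002 added, 0.46 for both, were also smaller than the markers' median but within the markers' range (0.14 to 3.75). *Ace* did not pass the test. The part of the tubule's share of the RNA in these changes was not tested.

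*Lnpep* encodes insulin-regulated aminopeptidase, a membrane enzyme that cleaves vasopressin and oxytocin and binds angiotensin IV. It lies at chr17:17521410-17625050 on the minus strand, with the predicted gene *Gm49784* on the same strand. Vehicle kidneys held 154 to 173 CPM, cisplatin kidneys 223 to 251 CPM, co-treated kidneys 166 to 202 CPM, and KW6002 kidneys 152 to 192 CPM. All cisplatin kidneys lay above all others. *Lnpep* rose 1.42-fold after cisplatin (0.51 ± 0.06, adjusted p = 2.02e-07), fell with KW6002 added (−0.26 ± 0.06, adjusted p = 9.39e-04), and was 1.19-fold above vehicle with both drugs (0.25 ± 0.06, adjusted p = 1.15e-03). *Lnpep* and *Agt* were the only members to rise after cisplatin, and both fell when KW6002 was added.

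*Atp6ap2* encodes the (pro)renin receptor. It lies at chrX:12587801-12617049 on the plus strand. Vehicle kidneys ran from 126 to 155 CPM, cisplatin kidneys from 106 to 127, co-treated kidneys from 140 to 159, and KW6002 kidneys from 132 to 145 CPM. The highest cisplatin kidney reached into the vehicle range, while the co-treated kidneys lay above every cisplatin kidney. Its fall after cisplatin (−0.30 ± 0.06, adjusted p = 8.57e-05) was −0.08 (adjusted p = 0.236) when libraries were scaled by size alone. Its rise with KW6002 added was 1.33-fold (0.41 ± 0.06, adjusted p = 1.75e-06), and 0.35 (adjusted p = 2.3e-05) under library size scaling. Against vehicle, co-treated kidneys differed by 0.11 ± 0.05 (adjusted p = 0.0855), and by 0.27 under library size scaling (adjusted p = 3.26e-04), 0.23 among mice of the 500s (adjusted p = 9.78e-03), and 0.16 without vehicle replicate 2 (adjusted p = 0.0162).

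**Figure D2:**
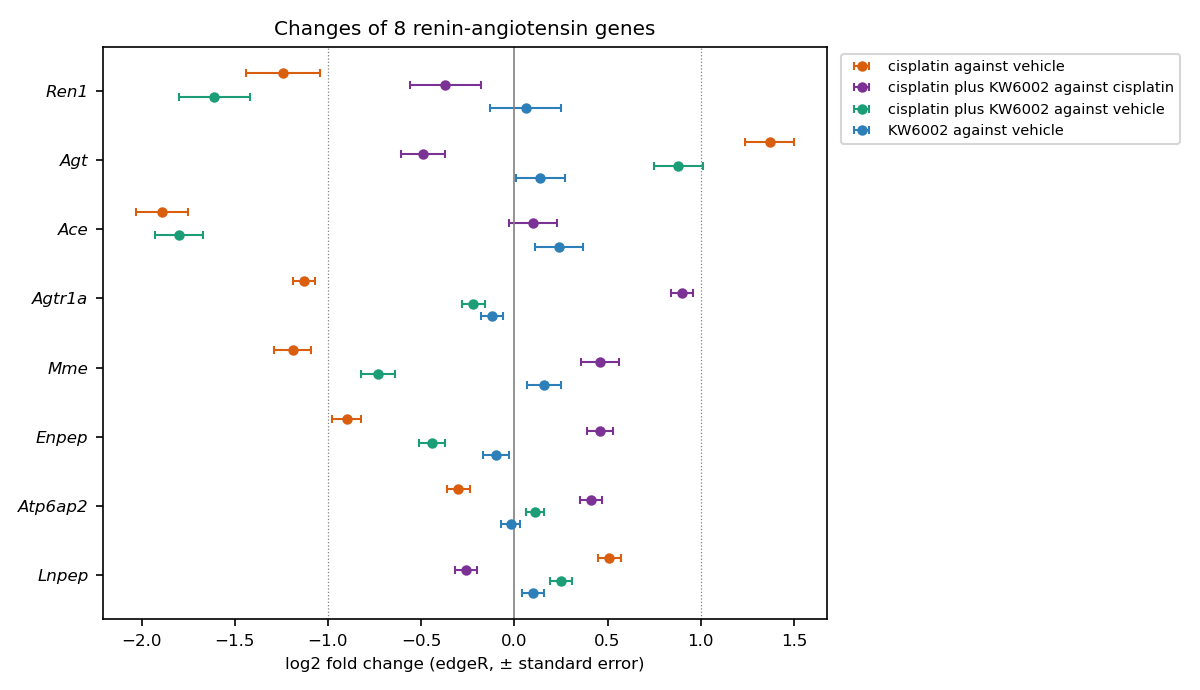
Log2 fold changes (horizontal axis, edgeR, ± SE) of the 8 members in 4 comparisons, with dotted lines at the size needed for a call. *Ace* and *Ren1* stay beyond −1 with both drugs (−1.80 and −1.61), *Agtr1a* returns to −0.22, and every KW6002 against vehicle value lies between −0.12 and 0.24.

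Co-treated kidneys were compared with vehicle to see how far each gene stood from its untreated level. *Ren1* and *Ace* were called lower, beside 13.4% of all genes called in either direction and 7.59% called lower. An adjusted p below 0.05 was reached by 7 members, *Agt* and *Lnpep* higher and *Ren1*, *Ace*, *Mme*, *Enpep*, and *Agtr1a* lower, beside 59.7% of all genes, 29.8% higher and 29.9% lower. No overlap with vehicle was seen for 5 members (*Ren1*, *Agt*, *Ace*, *Mme*, and *Enpep*), beside 37.5% of all genes, and 6 did not overlap between co-treated and cisplatin kidneys, beside 37.8%. The order of the group means was therefore not one order for all members. With both drugs the mean level was 32.7% of vehicle for *Ren1* and 28.8% for *Ace*, then 60.5% for *Mme*, 73.7% for *Enpep*, 85.7% for *Agtr1a*, and 108% for *Atp6ap2*.

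For KW6002 without cisplatin no member passed the test. Log2 fold changes ran from −0.12 for *Agtr1a* to 0.24 for *Ace*, the smallest adjusted p was 0.472, and the groups overlapped for all 8 genes, beside 1.38% of all genes without overlap. No gene of the 17131 was called (0.0%), 3 (0.0175%) passed an adjusted p of 0.05, 1930 had an unadjusted p below 0.05, and DESeq2 called 4 genes. The largest standard error among the members was 0.19, for *Ren1*, so a small effect on this gene was not detectable with these kidneys. A direct test of the difference between KW6002's effects with and without cisplatin passed for 5 members, *Agtr1a* (1.02), *Enpep* (0.57), and *Atp6ap2* (0.43) upward and *Agt* (−0.63) and *Lnpep* (−0.35) downward, beside 42.7% of all genes, 22.8% upward and 19.9% downward. It did not pass for *Ren1* (−0.43, adjusted p = 0.211), *Ace* (−0.15, adjusted p = 0.547), or *Mme* (0.31, adjusted p = 0.0703).

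Levels can be compared between genes per kb of exon. In vehicle kidneys the order was *Atp6ap2* (52.7 ± 4.7 CPM per kb, SD, n = 5), *Ren1* (52.2 ± 10.1), *Ace* (51.3 ± 5.9), *Enpep* (48.8 ± 4.2), *Agt* (33.8 ± 4.1), *Mme* (20.4 ± 3.8), *Agtr1a* (16.9 ± 1.5), and *Lnpep* (11.5 ± 0.6). The ranges of the first 4 genes overlapped from neighbour to neighbour, as did those of *Mme* and *Agtr1a*, while *Agt* and *Lnpep* stood clear of their neighbours. After cisplatin *Agt* was at 87.2 ± 8.8 CPM per kb, and *Ren1* and *Ace* were at 22.1 ± 3.8 and 13.8 ± 2.0 CPM per kb. The lengths are unions of all annotated exons, which for *Mme* and *Lnpep* are long and lower these values.

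**Figure D3:**
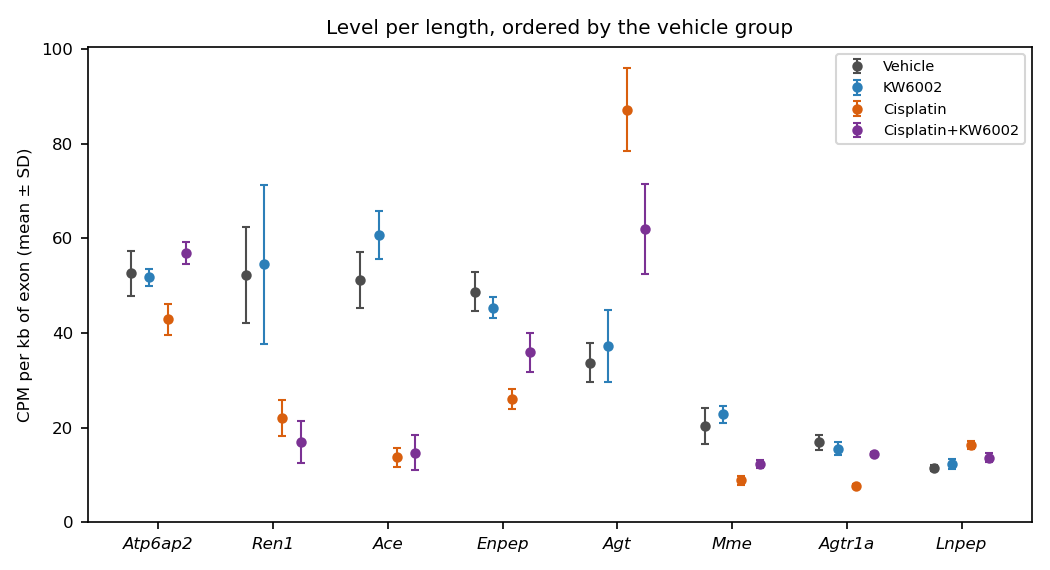
Mean CPM per kb of exon ± SD (vertical axis) of each member in the 4 groups, ordered by the vehicle mean (n = 5 or 6 kidneys per group). *Agt* stands at 87.2 CPM per kb after cisplatin and *Atp6ap2*, next, at 42.9. The cisplatin means of all members but *Agt* and *Lnpep* stand below their vehicle means.

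Other genes of the angiotensin pathway were read from a list of 23 symbols, of which 21 were in the table and 14 had enough counts to be tested. After cisplatin 10 of the 14 fell, 1 rose, and 3 did not pass (median log2 fold change −0.32, beside −0.01 over all genes). Under library size scaling 7 fell and 4 rose. With KW6002 added to cisplatin 6 of the 14 rose, 2 fell, and 6 did not pass (median 0.06, beside 0.01 over all genes). With both drugs against vehicle 6 fell and none rose, but under library size scaling 4 fell and 6 rose. Of all genes, 35.9% fell and 34.6% rose after cisplatin, and 28.6% rose and 27.2% fell with KW6002 added. With both drugs against vehicle 29.9% of all genes fell and 29.8% rose. *Mas1*, the receptor of the heptapeptide that opposes angiotensin II, had 0.528 to 1.49 CPM with vehicle, 0.101 to 0.480 with cisplatin, and 0.652 to 2.29 with both drugs. It fell after cisplatin (−2.18 ± 0.38, adjusted p = 2.06e-05) and rose with KW6002 added (2.75 ± 0.36, adjusted p = 9.01e-07), both called, at 4 to 73 counts per library, and the antisense gene *Airn* overlaps it. *Tmem27* (*Cltrn*), which encodes collectrin, a partner of amino acid transporters of the proximal tubule, fell from 1489 ± 107 to 159 ± 46 CPM (−3.22 ± 0.15, adjusted p = 1.94e-14) and rose to 745 ± 113 CPM with KW6002 added (2.23 ± 0.14, adjusted p = 3.19e-11). *Agtrap* and *Arap1*, whose proteins bind the type 1 receptor, moved apart: *Agtrap* fell (−0.70) and *Arap1* rose (0.82, adjusted p = 4.89e-08), then fell with KW6002 added (−0.90, adjusted p = 1.69e-08).

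*Cpa3* encodes the carboxypeptidase of mast cells, and *Cma1* and *Mcpt4* their chymases, which can make angiotensin II without ACE. *Cpa3* fell after cisplatin (−3.19 ± 0.63, adjusted p = 1.11e-04) and lay below vehicle with both drugs (−3.12 ± 0.61, adjusted p = 1.42e-04), from a vehicle mean of only 0.478 CPM. *Mcpt4* had 51 counts over the 5 vehicle kidneys, 1 to 25 in each, 53 over the KW6002 kidneys, none in any cisplatin kidney, and 4 over the co-treated kidneys. Against a floor of 3 counts over the cisplatin group it was at least 22.04-fold lower, a bound for counting error only, and at least 13.57-fold lower without vehicle replicate 2, which held 25 of the 51 counts. *Cma1* had 5 to 10 counts in each vehicle kidney, 0 to 16 with KW6002, 0 or 1 with cisplatin, and 0 to 2 with both drugs. Several of these proteases have close relatives, so their unique reads are an uncertain measure. The 6 mast cell markers summed to 23.3 to 30.4 CPM with vehicle and 17.6 to 21.7 with cisplatin, mostly from *Kit*, and 20.2 to 28.5 with both drugs. Only 3 of them were tested, of which 2 fell and 1 rose after cisplatin, and 2 rose and 1 fell with KW6002 added. *Tpsb2*, a mast cell tryptase, ran from 0.0976 to 0.842 CPM with vehicle and reached at most 0.0502 CPM with cisplatin. *Agtr2*, *Agtr1b*, *Ace3*, *Mrgprd*, and *Ctsg* had at most 9 counts in any library and were not tested, and *Cma2* and *Ren2* were not analysed here.

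Among kallikrein-kinin genes, which act against the renin-angiotensin system, 4 of 5 were tested. Of these 3 rose and 1 fell after cisplatin, beside 34.6% and 35.9% of all genes. With KW6002 added 2 rose and 1 fell, beside 28.6% and 27.2% of all genes. *Klk1*, tissue kallikrein, fell from 1225 ± 138 to 253 ± 37 CPM after cisplatin (−2.28 ± 0.11, adjusted p = 3.06e-14) and rose to 438 ± 60 CPM with KW6002 added (0.79 ± 0.10, adjusted p = 9e-07). *Kng1*, a kininogen, rose from 0.463 ± 0.076 to 2.05 ± 0.23 CPM after cisplatin (2.14 ± 0.29, adjusted p = 9.33e-07) and fell with KW6002 added (−0.66, adjusted p = 0.0277). *Bdkrb2*, the B2 bradykinin receptor, rose after cisplatin (1.06 ± 0.22, adjusted p = 1.72e-04) and rose again with KW6002 added (0.68 ± 0.20, adjusted p = 5.78e-03), and *Kng2* rose after cisplatin (0.38) but did not pass among mice of the 500s (0.20, adjusted p = 0.192). *Klk1*, *Kng1*, and *Kng2* belong to families of near-identical genes, so their counts are uncertain. *Bdkrb1* had at most 3 counts in any library.

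Renin cells and the macula densa, the tubular cells that signal to them, were read from 13 genes, all tested. After cisplatin 4 rose, 5 fell, and 4 did not pass, and under library size scaling 6 rose and 4 fell. With KW6002 added 3 rose, 3 fell, and 7 did not pass, and 2 rose and 3 fell without co-treated replicate 6. Of all genes, 34.6% rose and 35.9% fell after cisplatin, and 28.6% rose and 27.2% fell with KW6002 added. The macula densa lies at the end of the thick ascending limb, whose 4 markers, *Umod*, *Slc12a1*, *Cldn16*, and *Kcnj1*, were all called lower after cisplatin (median −1.56), and all but *Umod* were called higher with KW6002 added (median 1.23), and that segment's part in the values of this list was not tested. *Nos1*, the macula densa's nitric oxide synthase, fell (−2.95 ± 0.23, adjusted p = 7.97e-11), and *Ptgs2*, cyclooxygenase 2, rose (3.42 ± 0.33, adjusted p = 4.26e-09). With KW6002 added neither passed (−0.12, adjusted p = 0.731, and −0.58, adjusted p = 0.0609), but *Ptgs2* did under library size scaling (−0.64, adjusted p = 0.041) and among mice of the 500s (−0.57, adjusted p = 0.0482). *Adora1*, the adenosine A1 receptor, which restrains renin release, rose from 12.5 ± 2.5 to 57.1 ± 6.2 CPM (2.19 ± 0.12, adjusted p = 1.86e-13) and fell to 31.3 ± 3.6 CPM with KW6002 added (−0.87 ± 0.11, adjusted p = 4.1e-07). *Mybph* overlaps it on the other strand. *Adrb1*, the beta-1 adrenergic receptor through which sympathetic nerves stimulate renin, fell (−1.88 ± 0.21, adjusted p = 3.48e-08), and its rise with KW6002 added (0.59, adjusted p = 0.0213) did not pass without co-treated replicate 6 (0.49, adjusted p = 0.0587). *Ptger4*, a prostaglandin E2 receptor, rose 0.99 after cisplatin and was called with both drugs (1.08, adjusted p = 5.15e-07).

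*Akr1b7*, a marker of renin cells that the adrenal cortex also expresses, fell after cisplatin (−1.59 ± 0.43, adjusted p = 2.13e-03), from 2.89 to 5.57 CPM with vehicle to 1.012 to 1.44 CPM. Among mice of the 500s that fall was not called (−1.48, adjusted p = 0.0385). With both drugs it ran from 1.31 to 10.1 CPM, and the highest value was that of replicate 6, the library with the adrenal transcripts. Its rise with KW6002 added (1.32 ± 0.41, adjusted p = 9.54e-03) was 0.46 (adjusted p = 0.0458) without that library and was not called under library size scaling (1.24, adjusted p = 0.0119) or among mice of the 500s (adjusted p = 0.0207). Without that library it stood below vehicle with both drugs (−1.13, adjusted p = 1.46e-05). *Gja4* and *Gja5*, gap junction genes of the arteriole, did not pass after cisplatin (−0.24 and −0.15). *Gja5* was below vehicle with both drugs, though not past the limit under library size scaling or among mice of the 500s. With KW6002 added to cisplatin *Gja5* fell among mice of the 500s but did not pass over all kidneys.

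Aldosterone is released in response to angiotensin II. Of 10 genes of its receptor and response, all tested, 4 rose and 4 fell after cisplatin, beside 34.6% and 35.9% of all genes. With KW6002 added 6 rose and 1 fell, beside 28.6% and 27.2% of all genes. The rises in the list were 3 and 5 without co-treated replicate 6, where *Scnn1a* (0.18, adjusted p = 0.0532) and *Sgk1* (0.54, adjusted p = 0.0701) no longer passed. Among mice of the 500s *Scnn1a* gave 0.06 after cisplatin (adjusted p = 0.581). *Slc12a3*, the thiazide-sensitive sodium chloride cotransporter, fell from 1597 ± 24 to 66.1 ± 19.1 CPM (−4.59 ± 0.23, adjusted p = 5.22e-14) and rose to 244 ± 79 CPM with KW6002 added (1.88 ± 0.20, adjusted p = 5.6e-08). *Sgk1*, *Per1*, and *Tsc22d3*, which respond to mineralocorticoids and glucocorticoids alike, rose (1.75, 1.80, and 1.29). With KW6002 added, *Sgk1* rose (0.57, adjusted p = 0.043), though not past the limit under library size scaling (0.51, adjusted p = 0.0677), *Tsc22d3* fell (−0.53, adjusted p = 6.18e-03), and *Per1* gave 0.05 (adjusted p = 0.834). KW6002 without cisplatin gave 1.15 for *Sgk1* (adjusted p = 0.0814) and 0.86 for *Per1* (adjusted p = 0.088), and both passed among mice of the 500s (0.95, adjusted p = 0.0458, and 1.09, adjusted p = 2.92e-04). *Nr3c2*, the mineralocorticoid receptor, and *Hsd11b2*, the enzyme that shields it from glucocorticoids, fell after cisplatin (−0.67 and −0.91) and rose with KW6002 added (0.31 and 0.46). The difference between the KW6002 effects was called for *Mas1* (2.78), *Tmem27* (2.51), *Slc12a3* (1.95), and *Tsc22d3* (−1.35).

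**Figure D4:**
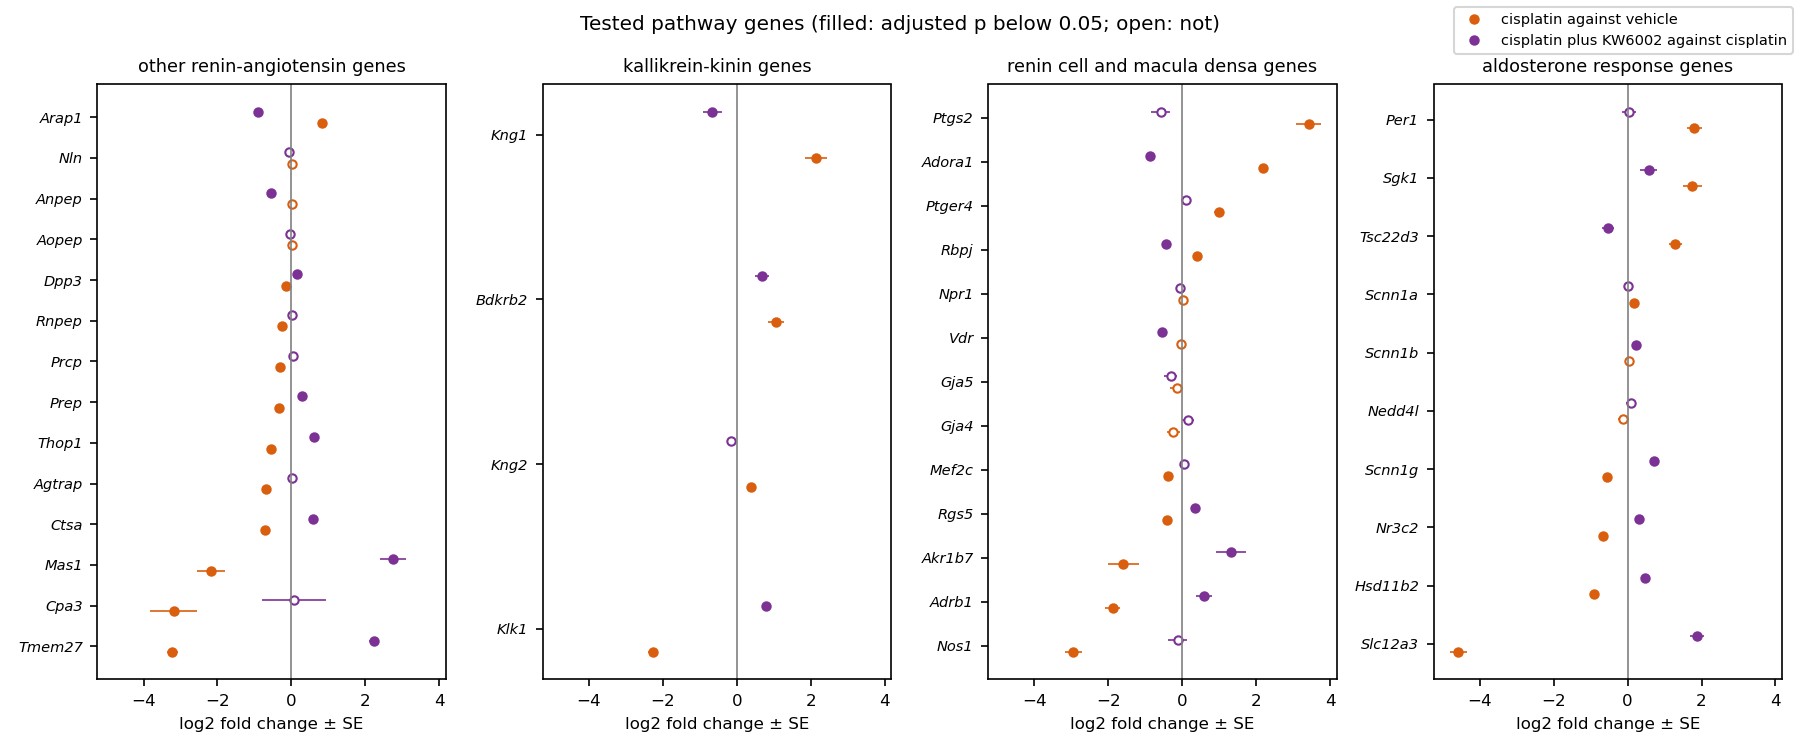
Log2 fold changes ± SE (horizontal axis) of the tested genes of 4 pathway lists after cisplatin (orange) and with KW6002 added to cisplatin (purple), with filled points for an adjusted p below 0.05. *Slc12a3* (−4.59), *Tmem27* (−3.22), *Cpa3* (−3.19), and *Nos1* (−2.95) lie furthest left and *Ptgs2* (3.42) furthest right, and the purple points of *Mas1* (2.75) and *Tmem27* (2.23) lie opposite their orange ones.

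The genes most like each called member over the 22 kidneys were found by the root mean square (RMS) difference of log2 CPM, each gene centred on its vehicle mean, among 10429 genes. This is a description, and the genes share libraries and depth. *Ren1* was nearest to *Timp3*, *Tmtc4*, and *Degs2* (RMS difference 0.316 to 0.354), *Agt* to *Hfe*, *Ano9*, and *P2rx5* (0.185 to 0.188), and *Ace* to *Slc17a3*, *Tnfaip8*, and *Pth1r* (0.220 to 0.234). *Agtr1a* had the closest neighbours, *Yif1b*, *Letm1*, and *Neurl4* (0.121 to 0.133), and *Mme* was nearest to *Slc27a2*, *Dock8*, and *Fam81a* (0.126 to 0.135). *Slc27a2* is a proximal tubule marker, and no member was among the nearest 3 of another.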

How the data were processed

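The authors made poly-A libraries with a stranded kit, aligned reads to mm10 with STAR, kept unique alignments, and counted them per gene with HTSeq-count (HTSeq 0.6.1p1, per the labels). The deposited values are raw counts, with no normalization. Whether strand was used in counting is not given in the sources used here. Symbols, positions, and lengths came from GENCODE M21, which named 32824 of 32858 genes. Another 66 unnamed, empty columns were not used.

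Genes were filtered with filterByExpr (minimum count 10, smallest group 5), which kept 17131 genes with 99.9% of the counts. Counts were fitted in edgeR 4.0.16 (R 4.3.3) with TMM factors, 1 mean per group over all 22 kidneys, and no covariate. The common biological coefficient of variation was 0.129. Replicates are different mice. Promoter windows came from RefSeq. The procedure was tested on simulated data for cisplatin against vehicle, where all 200 genes changed by a log2 fold change of 2 were recovered among 16448 genes. That simulation used 1 dispersion for all genes, as many rises as falls, and no series effect. It therefore does not test smaller changes or the choice of scaling.

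The 8 members and all lists were chosen with earlier results of these data known, so counts over a list are no independent evidence. 1 gene of the angiotensin pathway list is not reported here. Members were described in full, and list genes were named if called in any comparison or removed by the filter, with a few others added for contrast after their values were seen. Alternatives were DESeq2 1.42.0, other scalings and filters, fits of the groups compared, the number series, fat markers, and a replicate block, and each library left out. Library size scaling, the library with adrenal transcripts, and the 500s mice were added for the lists after seeing the data.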

Additional observations from a re-analysis of the deposited data

Results flagged for a closer look

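In 4 of the 32 combinations of a member and a group, 1 kidney lay far from the others by Dixon's 95% criterion, and chance gives about 1 in 20. *Atp6ap2* reached 145 CPM in KW6002 replicate 4, where the next kidney had 135 CPM, and 127 CPM in cisplatin replicate 5, where the next had 110 CPM. *Lnpep* reached 251 CPM in cisplatin replicate 1, with the next at 231 CPM, and 166 CPM in co-treated replicate 6, the library with adrenal transcripts, with the next at 196 CPM.

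For 5 members the effect of KW6002 differed between kidneys with and without cisplatin by edgeR's interaction test. This stands beside 42.7% of all genes, 22.8% upward and 19.9% downward. The members' differences were 1.02 for *Agtr1a*, 0.57 for *Enpep*, 0.43 for *Atp6ap2*, −0.35 for *Lnpep*, and −0.63 for *Agt* on the log2 scale. Among mice of the higher number series alone, *Agt* did not pass this test (−0.37, adjusted p = 0.141).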

How the results depend on the processing

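Over 1272 recomputed values of the 40 member fold changes, 1256 kept their side of the 0.05 limit, 4 lost the pass, and 12 gained it. Direction changed in 0 values that passed in the main or the recomputed fit. Sign changes between values that passed in neither fit were counted as kept, such as *Ace* with KW6002 added without co-treated replicate 6 (−0.03). The losses were *Atp6ap2* after cisplatin (−0.08) and *Agtr1a* with both drugs against vehicle (−0.06), both under library size scaling, *Agtr1a* with both drugs under the fat covariate (−0.17, adjusted p = 0.0546), and the *Agt* difference between KW6002 effects in mice of the 500s (−0.37). The gains were 3 for *Ren1* with KW6002 added to cisplatin, 4 for *Atp6ap2* with both drugs against vehicle, and 5 for the *Mme* difference between KW6002 effects.

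Library size scaling moved the median of all genes by 0.22 after cisplatin and by 0.16 with both drugs against vehicle. It left 3 members called after cisplatin, where *Agtr1a* (−0.91) and *Mme* (−0.97) missed the size limit, and 0 for the difference between KW6002 effects, where *Agtr1a* gave 0.95. With both drugs against vehicle it called *Agt* (1.03) as well, 3 members in all. The number series as covariate left 4 members called after cisplatin, without *Ren1* (−0.91). The share of called genes that were higher moved from 50.01% to 62.6% after cisplatin and from 43.4% to 56.5% with both drugs against vehicle. Asking for 10 counts in every library, which tested 14159 genes, called 2749 genes after cisplatin, 1043 with KW6002 added, and 1304 with both drugs against vehicle. For KW6002 alone, DESeq2 called 4 genes, the number series as covariate 4, and the 500s alone 1, and the cause was not tested.

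Leaving out 1 kidney at a time gave 4074 to 4308 called genes after cisplatin, 1597 to 1890 with KW6002 added, 0 to 2 for KW6002 alone, 2173 to 2368 with both drugs against vehicle, and 1308 to 1592 for the difference between KW6002 effects. The 2 came without vehicle replicate 3, and 1 gene was called without vehicle replicate 5. The members called stayed at 5, 0, 0, and 2, and ran from 0 to 1 for the difference, with 0 without vehicle replicate 1, vehicle replicate 4, KW6002 replicate 5, or cisplatin replicate 3. Of 31 pairs of libraries with the same replicate number, 7 had a correlation of deviations above 0.1 (−0.175 to 0.405). Pairs with different numbers were not computed, so this check cannot show whether replicate numbers pair the mice. With the replicate block, 4105 genes and 5 members were called after cisplatin, and all 40 member results kept their side.

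Depth was not limiting for the members, the lowest having 684 counts in a library, but *Mas1*, *Cpa3*, *Mcpt4*, and *Cma1* rest on few reads. All cisplatin mice carry numbers in the 500s, so the series and the drug can be told apart only through 2 vehicle and 3 KW6002 mice.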
